A study of Mus musculus with 20 samples.

Results

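The state of the liver's sinusoidal endothelium was followed through 10 marker genes in the livers of mice with diet-induced steatohepatitis. They are named genes among the 49315 of the expression table. The rule takes them by name and uses no measured value, but the list was drawn up with earlier results of these data known. They are 8 markers of the sinusoidal lining (Stab1, Stab2, Lyve1, Clec4g, Gpr182, Oit3, Fcgr2b and Dnase1l3) and 2 markers of continuous, capillary-type endothelium (Vwf and Cd34). All 10 were found in the table, and all 10 passed the filter for testing, which asked for 1 TPM or more on average over the 20 livers. TPM (transcripts per 1000000) is a share of each library's RNA corrected for gene length.

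The study used DIO-NASH mice, which carry obesity and steatohepatitis brought on by the AMLN diet and stayed on that diet. One group of 10 mice received S217879, a compound described as disrupting the NRF2-KEAP1 interaction, at 30 mg/kg by mouth once a day for 8 weeks. The other group of 10 mice received the vehicle, 1% HEC, for the same time. Both groups therefore carried the disease model, and livers of lean or chow-fed mice were not analysed here. The labels used here give neither strain, sex nor age, and each library is 1 whole liver sample of 1 mouse.

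Liver sinusoids are lined by a thin endothelium with open pores and no organised basement membrane, so that plasma reaches the hepatocytes. These cells are also the body's main scavengers of soluble waste: stabilin receptors, the Fc receptor encoded by Fcgr2b and several lectins bind and internalise hyaluronan, modified proteins and small immune complexes. In chronic liver disease the lining can lose its pores and scavenger genes, acquire Vwf, Cd34 and a basement membrane, and come to resemble an ordinary capillary, a change called capillarization. NRF2 is a transcription factor of the oxidative stress response that KEAP1 holds in check.

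Some features of the libraries bear on every level given below. Each library's TPM values sum to 1000000, and 4 genes built on ribosomal RNA sequence (Gm42418, Gm24270, Gm23935 and Mir6236) took 14.1 to 38.1% of it in S217879 livers and 17.4 to 58.2% in vehicle livers. Vehicle replicates 6 and 7 stood apart, with 58.2% and 50.7%, and their 8 sinusoidal markers summed to 94.2 and 112.5 TPM, the lowest of all 20 livers. A large share for a few genes lowers every other gene's TPM in that library, so each marker is also given without these livers or as a ratio within a library. Summed levels of gene lists, some list counts and some single genes outside the markers are given with these livers only. Mitochondrially encoded genes took 5.75 to 10.6% in S217879 livers and 3.41 to 7.46% in vehicle livers. With TPM rescaled without these genes, the same 4 markers passed as higher and the same 2 as lower as in the values given below. In bulk liver RNA, fewer cells of a type and less RNA per cell cannot be told apart. Hepatocyte genes (Alb, Apoa1, Ttr, Apob, Fgb and Hnf4a) summed to 33200 to 52000 TPM in S217879 livers and 26900 to 61500 TPM in vehicle livers.

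RefSeq promoter sequences were at hand for 5 of the 10 genes (Stab1, Stab2, Clec4g, Fcgr2b and Cd34), and 3 are shown because they stand for the 3 outcomes described below: a marker that was higher in S217879 livers (Clec4g), a marker that did not pass the test (Stab1) and a marker that was lower (Cd34). Each is the 250 bases before the gene start in GRCm38.p6, written 5′ to 3′ on the gene's own strand. Clec4g lies at chr8:3720652-3720901 (minus strand), Stab1 at chr14:31168642-31168891 (minus strand) and Cd34 at chr1:194938571-194938820 (plus strand). Capitals mark the one match found to the core of the antioxidant response element, TGACNNNGC, which NRF2 binds.
Clec4g: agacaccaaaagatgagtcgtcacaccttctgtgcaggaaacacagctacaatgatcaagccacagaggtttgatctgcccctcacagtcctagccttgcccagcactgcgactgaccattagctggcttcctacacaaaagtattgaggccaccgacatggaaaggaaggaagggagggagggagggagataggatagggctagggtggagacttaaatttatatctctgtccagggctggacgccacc
Stab1: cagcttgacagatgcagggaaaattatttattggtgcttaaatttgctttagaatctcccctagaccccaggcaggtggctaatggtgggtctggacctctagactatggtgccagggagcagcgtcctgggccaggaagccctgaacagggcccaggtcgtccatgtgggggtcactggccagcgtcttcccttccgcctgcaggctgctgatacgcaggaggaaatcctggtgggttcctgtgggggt
Cd34: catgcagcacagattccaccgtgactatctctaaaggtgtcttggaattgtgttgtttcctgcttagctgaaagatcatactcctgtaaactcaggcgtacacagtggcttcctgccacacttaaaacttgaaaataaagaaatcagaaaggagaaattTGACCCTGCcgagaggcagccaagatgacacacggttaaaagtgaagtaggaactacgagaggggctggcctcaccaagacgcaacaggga

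Both strands of the 5 promoters were searched for 3 motifs, counted separately: the TGACNNNGC core, AGATAA, which is bound by GATA factors, and CCGGAA, which is bound by ETS factors. Both factor families are known regulators of endothelial genes. The match in Cd34, which begins 91 bases before the start, was the only one among the 5 genes. Of 32851 mouse promoters of the same length, 10.2% held TGACNNNGC, 9.99% held AGATAA and 12.0% held CCGGAA. A match describes the letters of this window and no more.

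Lyve1, a hyaluronan receptor related to CD44 that is carried by sinusoidal and lymphatic endothelium, was the marker that differed most. Its lowest, median and highest levels were 14.5, 19.1 and 25.3 TPM in S217879 livers, against 6.45, 11.8 and 13.8 TPM in vehicle livers. All 10 treated livers were above all 10 vehicle livers. Of the tested genes 1.84% were higher without overlap, and 1.89% were lower. The means were 19.9 ± 3.33 TPM in S217879 livers and 11.0 ± 2.68 TPM in vehicle livers (SD, n = 10 each). On the log2(TPM + 0.5) scale Lyve1 rose by 0.86 ± 0.13 (SE), 1.81-fold, with an adjusted p of 1.59e-06 by limma over all 13401 tested genes. Without vehicle replicates 6 and 7 the vehicle range was 9.48 to 13.8 TPM, still below every treated liver. Lyve1 lies on the minus strand of chr7:110850607-110863239 in GRCm38, and its exons overlap those of no other annotated gene.

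With Lyve1, 4 of the 8 sinusoidal markers passed the threshold of adjusted p under 0.05 upward and none downward, beside a background of 6.07% of all tested genes higher and 23.5% lower. The other three were Gpr182, Oit3 and Clec4g. Gpr182 encodes a scavenging receptor for chemokines. Its lowest, median and highest levels were 16.9, 21.8 and 29.2 TPM in S217879 livers, against 9.78, 16.1 and 20.8 TPM in vehicle livers. The ranges overlapped, but every treated liver lay above the vehicle median. Gpr182 rose by 0.44 ± 0.12 on the log2 scale, 1.35-fold (adjusted p 0.00618). Its exons on chr10:127747276-127751732 overlap Zbtb39 on the other strand, which fell by 0.26 (adjusted p 0.0484).

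Oit3, which encodes a secreted protein with a zona pellucida domain, reached 20.7, 24.0 and 28.5 TPM (lowest, median, highest) in S217879 livers, against 10.4, 18.9 and 24.9 TPM in vehicle livers. It rose by 0.40 ± 0.13 on the log2 scale, 1.32-fold (adjusted p 0.0134). Both groups overlapped. Without vehicle replicates 6 and 7 the call remained for Gpr182 (log2 difference 0.29, adjusted p 0.00856) and for Oit3 (0.23, adjusted p 0.0129).

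Clec4g, a C-type lectin of sinusoidal and lymph node endothelium also called LSECtin, was the most abundant of the 10 markers. Its lowest, median and highest levels were 31.8, 41.4 and 49.0 TPM in S217879 livers, against 17.5, 34.0 and 42.9 TPM in vehicle livers. The ranges overlapped widely. The rise was 0.34 ± 0.13 on the log2 scale, 1.27-fold, and only just passed (adjusted p 0.0483). With vehicle replicates 6 and 7 left out it did not pass (0.16, adjusted p 0.0965). Among the single livers left out in turn it was kept only without S217879 replicates 2 or 3 or vehicle replicates 1, 2 or 9. With median-of-ratios scaling, which sets libraries on the scale of their typical gene, the groups did not overlap: 37.3 to 47.9 scaled TPM in S217879 livers and 24.0 to 36.6 in vehicle livers. On that scale 8.66% of tested genes were higher without overlap and 4.1% lower.

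The other 4 sinusoidal markers did not pass. Stab1 and Stab2, the stabilin scavenger receptors, had medians of 22.5 and 22.1 TPM in S217879 livers, against 22.4 and 24.7 TPM in vehicle livers. Stab1 ran over 15.6 to 25.9 TPM in S217879 livers and 16.3 to 29.6 TPM in vehicle livers, and its log2 difference was -0.02 with a 95% interval of -0.25 to 0.21 (adjusted p 0.912). Stab2 ran over 18.0 to 25.9 TPM in S217879 livers and 15.6 to 30.1 TPM in vehicle livers, and its log2 difference was -0.10 with an interval of -0.32 to 0.13 (adjusted p 0.553). The ranges of both receptors overlapped almost fully. The sign of both depended on scaling: with median-of-ratios scaling Stab1 was at 0.13 and Stab2 at 0.06, and without vehicle replicates 6 and 7 at -0.12 and -0.21. In the last of these fits Stab2 passed as lower (adjusted p 0.0165), as did 54.5% of all tested genes. Stab2 also passed as lower when the 4 rRNA-type genes were taken out of the TPM sum (-0.24, adjusted p 0.00845), when the 20 most abundant genes were (-0.17, 0.0458) and with array weights (-0.18, 0.0103). In those fits 64%, 54.3% and 59.9% of all tested genes were lower. The exons of Stab1 overlap Nt5dc2 on the other strand, which averaged 7.87 TPM in S217879 livers and 14.0 TPM in vehicle livers and fell by 0.80 (adjusted p 6.43e-05). The library kit marks strand, but no source used here says whether strand was used in counting.

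Fcgr2b, the inhibitory Fc receptor that clears IgG complexes in sinusoids, ran over 17.3, 20.3 and 24.0 TPM (lowest, median, highest) in S217879 livers, against 9.63, 18.5 and 22.5 TPM in vehicle livers. Its log2 difference was 0.17 ± 0.12 (adjusted p 0.319). Dnase1l3, a secreted nuclease that degrades circulating chromatin, ran over 17.1, 19.7 and 23.6 TPM in S217879 livers, against 8.58, 17.4 and 22.6 TPM in vehicle livers. Its log2 difference was 0.29 ± 0.13 (adjusted p 0.0771). Both had their lowest vehicle values in replicates 6 and 7, and both lost most of the difference without those livers (0.01 for Fcgr2b and 0.12 for Dnase1l3). Under median-of-ratios scaling both passed as higher, at 0.32 (adjusted p 8.32e-05) and 0.44 (adjusted p 9.09e-05), on a scale where 30.8% of all tested genes did. Without vehicle replicate 9 alone Dnase1l3 also passed as deposited (0.34, adjusted p 0.0405).

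Both markers of continuous endothelium fell. Vwf, the large glycoprotein that tethers platelets and is stored in the granules of ordinary endothelium, had levels of 1.24, 1.53 and 1.95 TPM (lowest, median, highest) in S217879 livers, against 1.68, 2.43 and 2.97 TPM in vehicle livers. All 10 treated livers were below the vehicle median, and 8 vehicle livers were above every treated liver. Vwf fell by 0.50 ± 0.10 on the log2 scale, to 0.705-fold (adjusted p 0.000165). The overlap came from vehicle replicates 6 and 7, at 1.68 and 1.91 TPM. Without them the vehicle range was 2.03 to 2.97 TPM, above every treated liver, and the log2 difference was -0.58 (adjusted p 6.4e-06). In that fit 54.5% of all tested genes were lower and the median gene was at -0.23. The share of all genes without overlap among these remaining livers was not counted.

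Cd34, a sialomucin of capillary endothelium and of blood progenitors, had levels of 0.665, 1.24 and 2.27 TPM (lowest, median, highest) in S217879 livers, against 1.08, 2.06 and 2.74 TPM in vehicle livers. The ranges overlapped, and 9 of 10 treated livers were below the vehicle median. The exception was S217879 replicate 4, at 2.27 TPM. Cd34 fell by 0.55 ± 0.14, to 0.682-fold (adjusted p 0.00335), and by 0.64 without vehicle replicates 6 and 7 (adjusted p 0.000881). The background of 23.5% lower genes applies to both Vwf and Cd34 as deposited, and that of 54.5% to both without vehicle replicates 6 and 7. Both genes were near the filter of 1 TPM, where the pseudocount of 0.5 shrinks a fold change: the ratio of means was 0.641 for Vwf and 0.62 for Cd34.

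**Figure D1:**
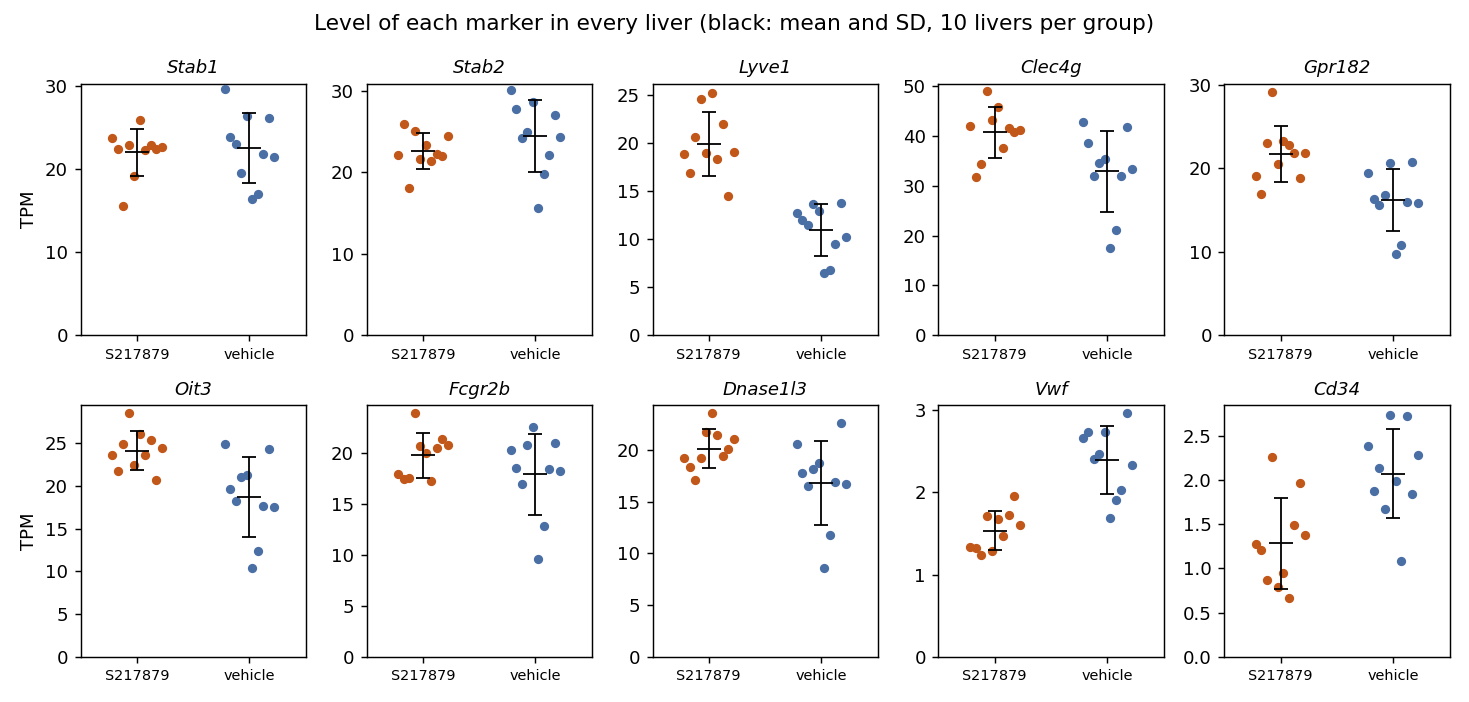
Level of each of the 10 markers (TPM, linear axes from 0) in every liver, S217879 at the left and vehicle at the right, with the mean and SD of 10 livers in black. Lyve1 shows no overlap between groups (14.5 to 25.3 TPM in S217879 livers, 6.45 to 13.8 TPM in vehicle livers), Vwf and Cd34 sit lower in S217879 livers, and Stab1 and Stab2 cover like ranges in both groups.

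**Figure D2:**
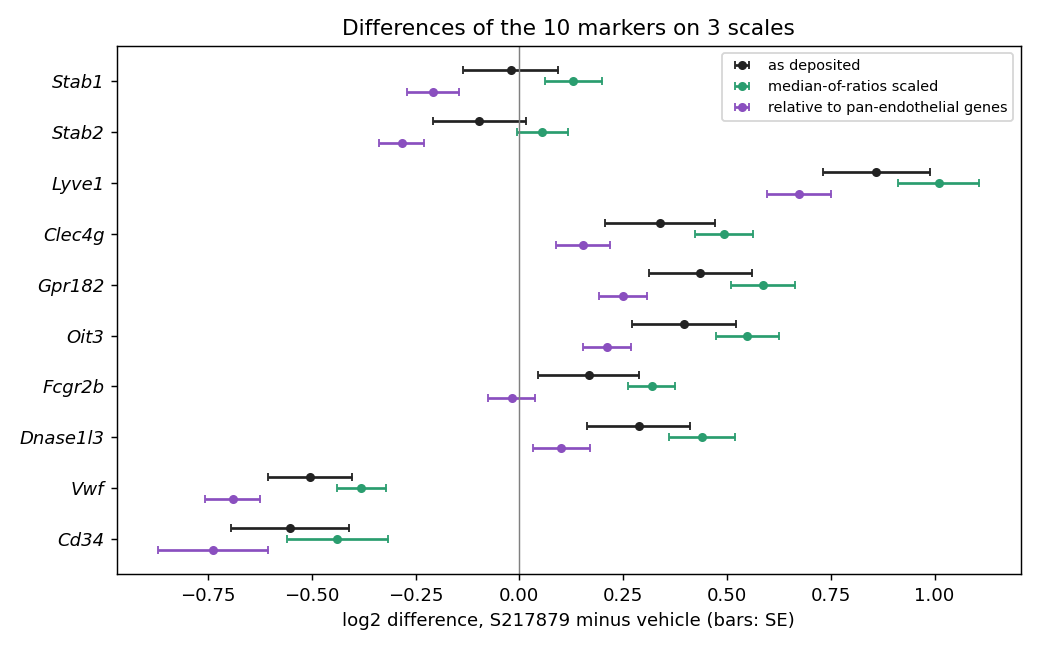
Log2 difference of each marker, S217879 minus vehicle, with bars of 1 SE, for TPM as deposited, for median-of-ratios scaled TPM and relative to the mean of 20 pan-endothelial genes in the same library. Lyve1, Gpr182, Oit3, Clec4g and Dnase1l3 lie right of 0 on all 3 scales and Vwf and Cd34 left of 0. Stab1 and Stab2 change sign between scales, as does Fcgr2b, at -0.02 relative to the pan-endothelial genes.

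The balance between the 2 kinds of marker was then read within each library, where no scaling enters. Vwf amounted to 5.66, 6.46 and 9.0% (lowest, median, highest) of the geometric mean of the 8 sinusoidal markers in S217879 livers, against 11.1, 12.6 and 15.1% in vehicle livers. The groups did not overlap, and the share of all genes without overlap in a ratio to Vwf was not counted. Cd34 amounted to 2.95, 5.72 and 9.05% in S217879 livers, against 7.8, 10.7 and 17.8% in vehicle livers, and here the groups overlapped. Without vehicle replicates 6 and 7 the vehicle ranges were 11.1 to 13.3% for Vwf and 7.8 to 14.9% for Cd34.

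**Figure D3:**
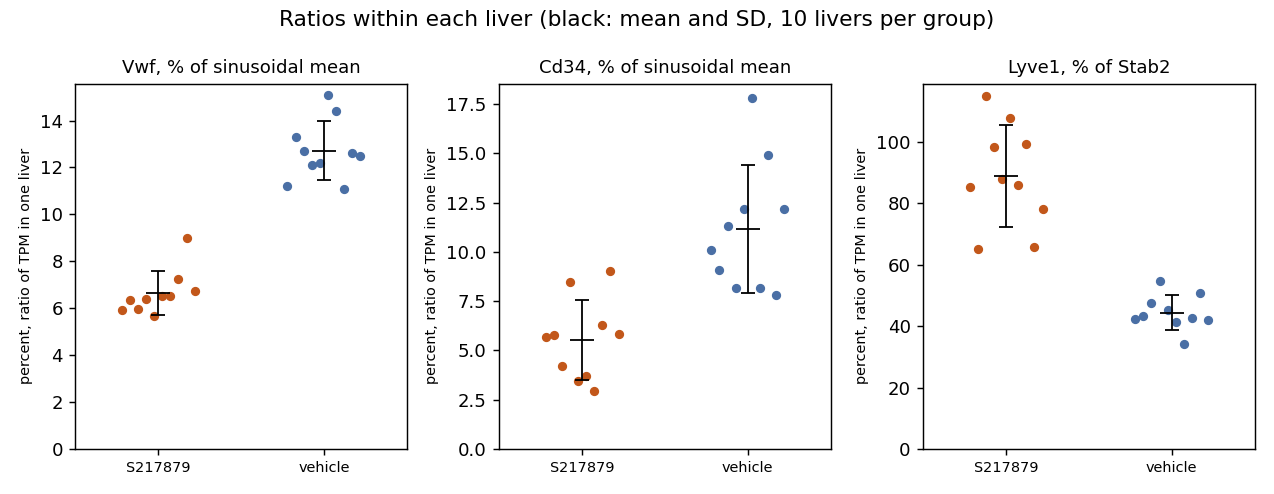
Ratios of TPM within each liver, in percent on linear axes from 0, S217879 at the left and vehicle at the right, with the mean and SD of 10 livers in black. Vwf as a share of the sinusoidal mean and Lyve1 as a share of Stab2 separate the groups without overlap, and Cd34 as a share of the sinusoidal mean does not. How many ratios of other genes would separate the groups was not counted.

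Relative to Vwf in the same library, all 8 sinusoidal markers passed as higher in S217879 livers, from 0.41 on the log2 scale for Stab2 (adjusted p 2.27e-05) and 0.48 for Stab1 to 0.90 for Oit3, 0.94 for Gpr182 and 1.36 for Lyve1, which is 2.57-fold (adjusted p 1.87e-11). This count has to be read against its background, since 74.0% of all tested genes were higher relative to Vwf and 3.51% lower, and the median gene was at 0.39. Stab1 and Stab2 thus stood near the median gene, while Lyve1 stood far above it. Lyve1 was 7.41, 13.4 and 16.7 times the level of Vwf (lowest, median, highest) in S217879 livers, against 3.54, 4.66 and 5.53 times in vehicle livers, with no overlap. Clec4g averaged 26.9 ± 3.72 times Vwf in S217879 livers and 13.6 ± 1.82 times in vehicle livers, also with no overlap. Even for Stab2, 9 of 10 treated livers were above every vehicle liver in the ratio to Vwf. How many of all genes do not overlap in such a ratio was not counted, so these separations may come from Vwf alone.

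Relative to Cd34 the 8 sinusoidal markers again all passed as higher, from 0.45 for Stab2 (adjusted p 0.00539) to 1.41 for Lyve1 (adjusted p 1.95e-14). Here 66.0% of tested genes were higher and 2.06% lower, with the median gene at 0.43. Every ratio to Cd34 shares the spread of Cd34 itself, and limma's pooling of variances over genes then makes these p-values too small. The exact Wilcoxon rank-sum test, which pools nothing, gave adjusted p-values of 0.0214 for Stab2 and 0.000407 for Lyve1 and called the same 8. No difference between the falls of Vwf and Cd34 passed the test: Cd34 relative to Vwf was at -0.05 with an interval of -0.32 to 0.22 (adjusted p 0.75). Cd34 was 0.454, 0.864 and 1.32 times Vwf in S217879 livers, against 0.569, 0.893 and 1.34 times in vehicle livers. The groups overlapped in nearly their whole range.

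The markers were next set against endothelial RNA as a whole, by the mean log level of 20 pan-endothelial genes in the same library. The geometric mean of these genes was 9.4 ± 0.847 TPM in S217879 livers and 8.29 ± 1.6 TPM in vehicle livers (SD, n = 10 each). The groups overlapped, and vehicle replicates 6 and 7 held the 2 lowest values, 5.4 and 5.91 TPM. Relative to this mean, 4 of the 10 markers passed as higher, beside a background of 4.95% of tested genes: Lyve1 (0.67, adjusted p 9.54e-08), Gpr182 (0.25, 0.000511), Oit3 (0.21, 0.00223) and Clec4g (0.15, 0.0351). Clec4g no longer passed here when vehicle replicates 6 and 7 were left out (0.10, adjusted p 0.153), nor without S217879 replicates 1, 5 or 6 or vehicle replicates 5, 6 or 7 taken singly.

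In the same ratio, 4 markers passed as lower, beside a background of 68.4% and a median gene at -0.30. These were Vwf (-0.69, adjusted p 8.39e-09), Cd34 (-0.74, adjusted p 3.52e-05), Stab2 (-0.28, adjusted p 7.27e-05) and Stab1 (-0.21, adjusted p 0.00501). Stab1 and Stab2 were again close to the median gene, and Vwf and Cd34 were below it. Fcgr2b (-0.02) and Dnase1l3 (0.10) did not pass. The 8 sinusoidal markers were therefore unequal among themselves, which the pair of hyaluronan receptors shows most plainly. Lyve1 reached 65.2, 87.0 and 115% of the level of Stab2 (lowest, median, highest) in S217879 livers, against 34.1, 43.0 and 54.6% in vehicle livers. No treated liver overlapped with a vehicle liver, and this pair was chosen after its values were seen, so no test is given.

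Because TPM is corrected for length, the levels of the markers can be ordered. In S217879 livers the order of means was Clec4g (40.7 TPM), Oit3 (24.1), Stab2 (22.6), Stab1 (22.0), Gpr182 (21.7), Dnase1l3 (20.1), Lyve1 (19.9), Fcgr2b (19.8), Vwf (1.53) and Cd34 (1.29). Clec4g was above Oit3 in 10 of 10 treated livers and Fcgr2b above Vwf in 10 of 10, but between Stab2 and Fcgr2b each gene exceeded the next in only 5 or 6 of 10, less than their spread. In vehicle livers Lyve1 stood apart at the low end of the sinusoidal markers, with a mean of 11.0 TPM, below Gpr182 (16.2 TPM) in 10 of 10. Stab2 (24.5 TPM) and Stab1 (22.5 TPM) followed Clec4g (32.9 TPM) there, and Stab1 was above Oit3 (18.7 TPM) in 9 of 10. Vwf exceeded Cd34 in 8 of 10 S217879 livers and 7 of 10 vehicle livers.

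Variation among livers of one group showed which markers went together. After median-of-ratios scaling, the group means were removed and Pearson's r was taken over the 20 livers, as a description with no test, since all points share libraries and their scaling. Lyve1 and Oit3 were the closest pair (r = 0.88), followed by Gpr182 and Oit3 (0.83), Lyve1 and Gpr182 (0.79) and Clec4g and Dnase1l3 (0.76). Stab1 was close to Stab2 (0.65) and to few others, with 0.05 to Gpr182 and -0.11 to Fcgr2b. The 28 pairs of sinusoidal markers had a median r of 0.55. Vwf had r from 0.20 to 0.43 with the sinusoidal markers, whereas Cd34 had r from -0.73 (Dnase1l3) to -0.14 (Stab1). Vwf and Cd34 were not alike (-0.13).

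**Figure D4:**
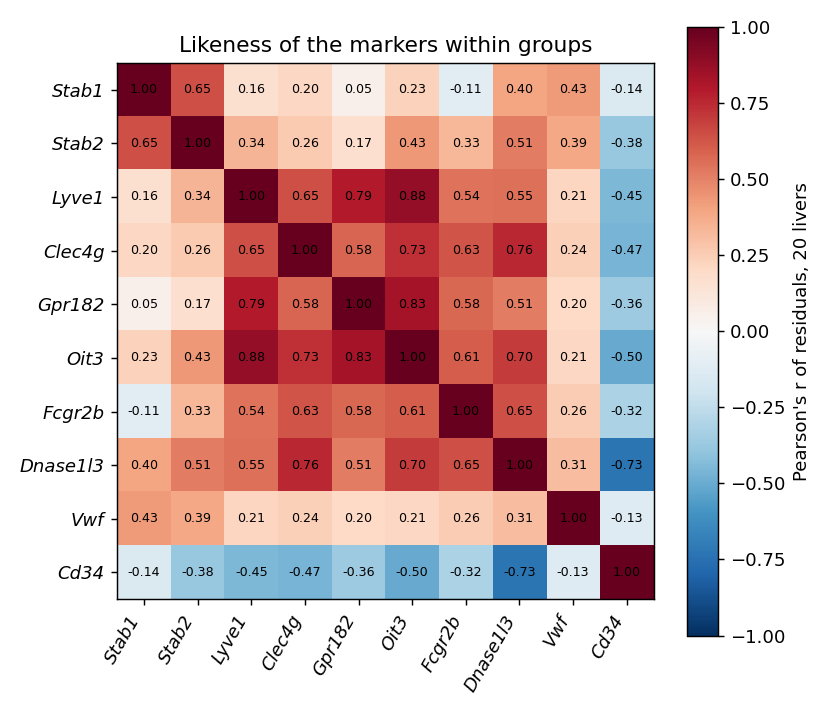
Pearson's r between the 10 markers over 20 livers, after median-of-ratios scaling and removal of the group means, from -1 (blue) to 1 (red). Lyve1, Gpr182 and Oit3 form the tightest block (0.79 to 0.88), Stab1 stands nearest to Stab2 (0.65), and every r of Cd34 with a sinusoidal marker is negative.

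The genes most like each marker differed. For Oit3 they were Adgrf5 (r = 0.85), an adhesion receptor of endothelium, Mrc1 (0.84), the mannose receptor that sinusoidal cells and macrophages share, and Nmnat1 (0.82). For Fcgr2b they were Tek (0.82), the angiopoietin receptor, Rfk (0.81) and Mylip (0.80). For Stab1 they were Shank3 (0.94), Rasip1 (0.91), a regulator of vessel lumen formation, and Ddx54 (0.84), and for Stab2 they included Slc26a2 (0.81) and Kit (0.78). For Lyve1 they were Fam167b (0.82), Slc25a17 (0.81) and E2f6 (0.80).

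The genes nearest to Clec4g were Arf1 (0.87), Psmc2 (0.87) and Stoml2 (0.86), to Gpr182 Itgb1 (0.86), Tomm20 (0.84) and Esco2 (0.82), and to Dnase1l3 mt-Te (0.83), Bpnt1 (0.82) and Atic (0.79). Those nearest to Vwf were C1qtnf1 (0.75), Mgat5 (0.74) and Zfp516 (0.73). For Cd34 they were Sparcl1 (0.93) and Smoc2 (0.92), which encode matricellular proteins, and Art4 (0.92). Sparcl1 and Smoc2 also fell, by 0.80 (adjusted p 0.00225) and 0.66 (adjusted p 0.00486) on the log2 scale.

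Other endothelial genes were read in lists, each beside the median of all tested genes, -0.12. Of all tested genes 6.07% were higher and 23.5% lower as deposited. After median-of-ratios scaling these shares were 30.8% higher and 22.7% lower. Without vehicle replicates 6 and 7 they were 5.52% higher and 54.5% lower. The pan-endothelial list had a median of 0.19 and 5 of 20 genes passed as higher and none as lower. The 3 with the largest differences were Mmrn2 (0.46, adjusted p 0.00255), an endothelial matrix protein, Kdr (0.43, 0.00542), the main VEGF receptor, and Sox18 (0.38, 0.00657), an endothelial transcription factor. Kdr averaged 14.3 ± 1.57 TPM in S217879 livers and 10.7 ± 2.59 TPM in vehicle livers (SD, n = 10 each). The list's count depended on scaling, with 18 of 20 higher after median-of-ratios scaling (median 0.33) and 3 higher and 1 lower without vehicle replicates 6 and 7 (median 0.04).

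Of 10 further sinusoidal genes 3 passed as higher and none as lower, with a median of 0.07 that turned to -0.05 without vehicle replicates 6 and 7. They were F8, coagulation factor VIII (0.38, adjusted p 0.0177), Ehd3, an endocytic protein (0.34, 0.029), and Bmp2, a ligand by which sinusoidal cells act on hepatocyte hepcidin (0.34, 0.0435). Bmp2 lost its call without those livers (0.19, adjusted p 0.139). In that fit 3 genes of the list passed as lower, beside 54.5% of all tested genes. After median-of-ratios scaling 5 of the 10 were higher, beside 30.8% of all tested genes.

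Genes of the portal side and of the central side of the sinusoid were read apart. Of 5 tested portal-side genes 3 passed as higher, beside 6.07% of all tested genes: Dll4, a Notch ligand (0.45, adjusted p 0.00155), Efnb2, an arterial ephrin (0.43, 0.00246), and Ntn4, a netrin (0.36, 0.0168). Msr1, a scavenger receptor that macrophages also carry, fell by 0.44 (adjusted p 0.00566). These 4 calls were kept under median-of-ratios scaling and without vehicle replicates 6 and 7. Dll4 averaged 5.66 ± 0.821 TPM in S217879 livers and 4.06 ± 0.809 TPM in vehicle livers. Of 6 tested central-side genes 2 passed as lower, Fabp4, a fatty acid binding protein (-0.41, adjusted p 0.0448), and Rspo3, a Wnt enhancer (-0.29, 0.0484). The median of the central-side list was -0.16, near the -0.12 of all genes, and its count was near the background of 23.5% lower. Both genes were at the edge of the threshold, and passed in 13 of 35 and 12 of 34 alternatives. The difference between the 2 lists was not tested.

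Genes of continuous endothelium other than Vwf and Cd34 were read next. Of 7 tested, Ly6c1 (1.41, adjusted p 3.12e-13) and Esm1 (1.15, adjusted p 7.24e-07) rose and Cd200, a surface glycoprotein that restrains myeloid cells (-0.30, adjusted p 0.0427), fell. Esm1, a proteoglycan of VEGF-stimulated endothelium, averaged 14.0 ± 4.08 TPM in S217879 livers and 5.94 ± 1.35 TPM in vehicle livers. Ly6c1 averaged 2.4 ± 0.397 TPM in S217879 livers and 0.599 ± 0.19 TPM in vehicle livers, so that it passed the filter of 1 TPM through the treated livers, and its reads may be shared with its near-identical neighbour Ly6c2. Cd200 averaged 0.91 TPM in S217879 livers and 1.24 TPM in vehicle livers and passed the same filter through the vehicle livers. The calls of Ly6c1 and Cd200 therefore support nothing further, and no shared direction of this list is read from them. Plvap, the diaphragm protein of capillary pores, was at -0.14 (adjusted p 0.419). Cd200 did not pass after median-of-ratios scaling (adjusted p 0.0732). There Ly6c1, Esm1 and a pair of other genes made 4 of 7 higher, beside 30.8% of all tested genes. Ly6c1 enters that count only through the filter.

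Of 7 tested genes of larger vessels and leukocyte adhesion 4 passed as lower and none as higher (4 and 1 after median-of-ratios scaling). Of all tested genes 23.5% were lower and 6.07% higher (22.7% and 30.8% after that scaling). Among the lower genes were Icam1 (-0.59, adjusted p 0.000141) and Vcam1 (-0.49, 0.00143), the adhesion molecules of activated endothelium, and Selp, which encodes P-selectin, held in the same granules as Vwf (-0.47, 0.00129). Selp averaged 0.919 TPM in S217879 livers and 1.49 TPM in vehicle livers. It thus passed the filter of 1 TPM through the vehicle livers, and its call supports nothing further. The count of 4 lower genes includes Selp on both scales. Icam1 averaged 9.91 ± 1.63 TPM in S217879 livers and 15.2 ± 2.75 TPM in vehicle livers. All 3 calls were kept in each alternative in which the gene was tested. Other cells of the liver also express Icam1 and Vcam1, and their part was not tested.

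The basement membrane list, which capillarized sinusoids acquire, fell most widely, with 10 of 12 genes lower, none higher and a median of -0.42. The background was 23.5% of all tested genes lower and 6.07% higher. Nid1, which encodes nidogen (-0.81, adjusted p 1.28e-06), averaged 16.0 ± 3.03 TPM in S217879 livers and 28.4 ± 5.7 TPM in vehicle livers. Next came Col15a1 (-0.66, adjusted p 0.000409), then Col4a1 (-0.55, 0.00026) and Lama5 (-0.55, 0.00123), which encode chains of collagen and laminin. After median-of-ratios scaling 9 of 12 basement membrane genes were lower, beside 22.7% of all tested genes. Without vehicle replicates 6 and 7 it was 11 of 12, where 54.5% of all tested genes were lower. Stellate cells make much of this matrix, and 7 of 9 stellate genes were also lower (6 lower and 1 higher after median-of-ratios scaling), among them Pdgfrb (-0.64, adjusted p 8.88e-05) and Rgs5 (-0.50, 0.0228). The summed stellate level was 181 to 266 TPM in S217879 livers and 158 to 321 TPM in vehicle livers, and its part in the basement membrane result was not tested.

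**Figure D5:**
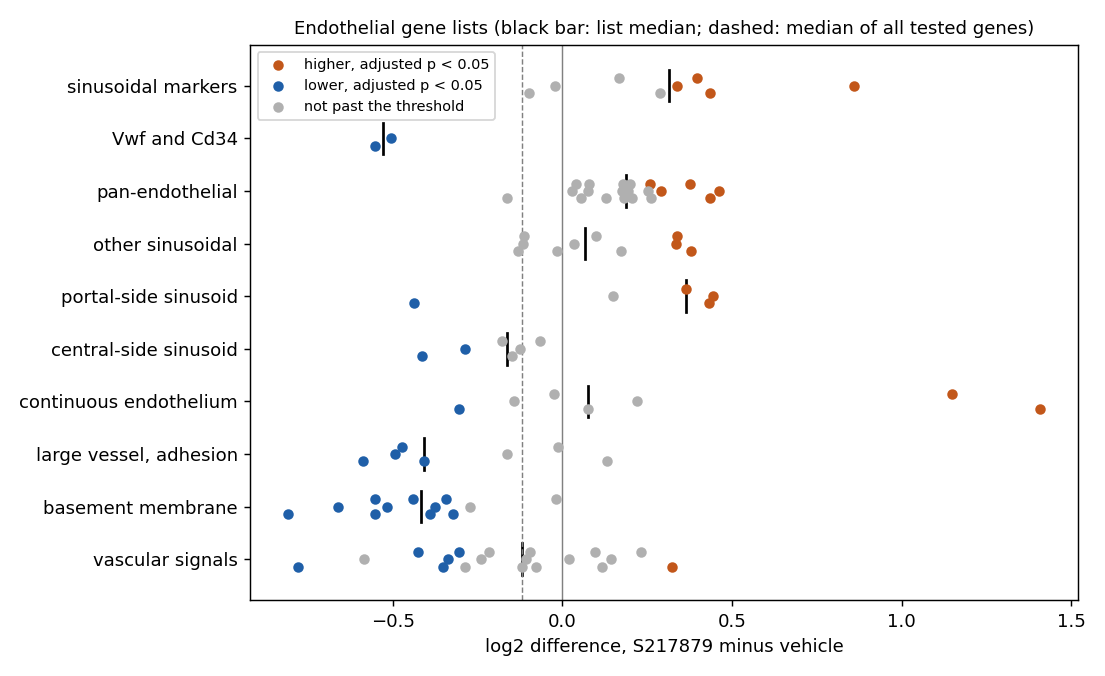
Log2 difference, S217879 minus vehicle, of each tested gene in the marker sets and 8 further endothelial lists, with genes past adjusted p under 0.05 in orange (higher) or blue (lower), list medians as black bars and the median of all tested genes (-0.12) dashed. Sinusoidal markers and portal-side genes sit mostly to the right, whereas Vwf, Cd34 and 10 of 12 basement membrane genes sit to the left.

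Of 19 tested genes of vascular signalling 1 passed as higher and 5 as lower, with a median of -0.12, equal to that of all genes. Both counts were near the background of 6.07% higher and 23.5% lower. Angpt2, a ligand of the Tek receptor, was at 0.32 (adjusted p 0.0334), which missed the threshold once vehicle replicates 6 and 7 were left out (0.28, adjusted p 0.0619). Of the 5 lower genes, the 3 with the largest differences were Vegfb (-0.78, adjusted p 1.58e-06), Nrp2, a VEGF co-receptor (-0.43, 0.00259), and Gdf2, the ligand BMP9 (-0.35, 0.0264). Vegfa, the main ligand of Kdr, was at 0.12 (adjusted p 0.533). After median-of-ratios scaling 5 of the 19 were higher and 4 lower, beside 30.8% and 22.7% of all tested genes. Without vehicle replicates 6 and 7 none was higher and 12 were lower, in a fit where 54.5% of all tested genes were lower.

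Several markers are also made by other cells, whose own genes were read beside them. Macrophages share Stab1, Lyve1 and Fcgr2b in part: 6 of 11 macrophage genes were lower and none higher, beside 23.5% and 6.07% of all tested genes. Cd68 was at -0.77 (adjusted p 1.23e-06) and C1qa at -0.67 (adjusted p 9.35e-05). The summed level of the 11 genes was 571 to 1100 TPM in S217879 livers and 701 to 1480 TPM in vehicle livers. Lymphatic vessels share Lyve1: neither tested lymphatic gene passed, Prox1, which hepatocytes also express, being at -0.28 (adjusted p 0.0941) and Pdpn at -0.10 (adjusted p 0.736). Ccl21a, listed at 0 in all 20 livers, and Mmrn1 were below the filter and not tested. Mmrn1 averaged 0.114 TPM in S217879 livers and 0.0791 TPM in vehicle livers, with 8 of 10 treated livers above the vehicle median. B cells share Fcgr2b: of 4 tested genes Cd22 fell (-0.38, adjusted p 0.0384), a share near the background of 23.5% lower. The summed level of the B cell list was 6.91 to 13.3 TPM in S217879 livers and 5.97 to 31.6 TPM in vehicle livers. No tested gene of the macrophage or lymphatic lists passed as higher, as deposited or after median-of-ratios scaling. Only 2 of the 4 listed lymphatic genes were tested. The part of macrophages, lymphatic vessels and B cells in the levels of the shared markers was not tested.

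Platelets and megakaryocytes share Vwf: Pf4, which macrophages also make, fell by 0.43 (adjusted p 0.0243) and Itga2b, which marks platelets more strictly, was at 0.10 (adjusted p 0.514). Only 2 of the 9 listed genes of these cells were tested, and those below the filter went in both directions. The summed level of all 9 was 5.33 to 11.0 TPM in S217879 livers and 5.74 to 10.8 TPM in vehicle livers, with broad overlap. Pf4 was the largest part of this sum, with means of 3.38 TPM in S217879 livers and 4.69 TPM in vehicle livers. Fibroblasts and mesothelium share Cd34: 2 of 8 tested genes were lower, Mfap4 (-0.81, adjusted p 0.00133) and Entpd2 (-0.35, 0.0189), a share near the background of 23.5%. The summed level was 56.7 to 103 TPM in S217879 livers and 67.3 to 126 TPM in vehicle livers. Among them Dpt, a matrix protein of fibroblasts, was most like Cd34 over the 20 livers (r = 0.91) and stood at -0.59 (adjusted p 0.0515). The fibroblast and mesothelial list as a whole had a median r of 0.21 with Cd34, from -0.36 to 0.91. The pan-endothelial genes had a median r of -0.24 with Cd34, from -0.71 to 0.22. The part of fibroblasts in the lower level of Cd34 was not tested.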

How the data were processed

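Liver RNA of 20 mice was sequenced after poly(A) capture with a stranded kit, per the labels' protocols. The submitters' processing notes name Trimmomatic 0.36, STAR 2.5.2b, featureCounts, Subread 1.5.2 and GRCm38. The deposited values are TPM per gene, made by the authors, and 48970 of 49315 gene identifiers had a symbol in GENCODE M21. Read counts were not used here, so the depth of a library is unknown and its counting error cannot be given.

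The 13401 genes that averaged 1 TPM or more were tested on log2(TPM + 0.5) with limma 3.58.1 (R 4.3.3; trend and robust options), group as the only term and Benjamini-Hochberg adjustment over all tested genes, with a threshold of 0.05. The same fit was run on log ratios within a library to Vwf, to Cd34 and to the mean of 20 pan-endothelial genes. The script was checked on simulated data. Loci are those of GENCODE M21, and promoters come from RefSeq. The 10 members and the lists were chosen with earlier results of these data known. The text names all 10 members, up to 3 called genes at each end of an endothelial list, up to 2 at each end of other lists and the 3 genes most like each member (1 of those for Stab2 is not reported here), with Plvap, Vegfa, Itga2b, Dpt and the lymphatic genes added after their values were seen. Groups were 10 S217879 and 10 vehicle livers, and no 2 libraries were identical. Alternatives covered pseudocounts, filters, scalings, tests and libraries left out.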

Additional observations from a re-analysis of the deposited data

Results flagged for a closer look

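In 38 groups of 10 values the end value was compared with its nearest neighbour, and 3 stood far from the rest of their group, where chance gives about 1 in 20 groups. Gpr182 reached 29.2 TPM in S217879 replicate 4, against 23.2 TPM in the next treated liver, and that library had the lowest share of rRNA-type genes, 14.1%. In S217879 replicate 9 Vwf was 9.0% of the sinusoidal mean, against 7.25% in the next treated liver, and Lyve1 was 7.41 times Vwf, against 11.9 times in the next. These last values share Vwf and come from the same liver. That liver still lay outside the vehicle range in both ratios.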

How the results depend on the processing

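The alternatives numbered 35. Lyve1, Gpr182 and Oit3 were called higher in 35 of 35, and Vwf and Cd34 lower in 34 of the 34 that tested them. The markers called higher numbered 3 to 6, and 3 to 5 when single livers were left out. With a minimum mean of 5 TPM, Vwf and Cd34 were not tested, so that 0 markers were lower, 2 (Stab1 and Stab2) were lower relative to pan-endothelial genes, and no ratio to Vwf or Cd34 was fitted. The 8 markers higher relative to Vwf and to Cd34 stayed at 8 in all 34 alternatives. The sign of Stab1 (-0.02) turned with median-of-ratios scaling (0.13, and 0.14 also without vehicle replicates 6 and 7, a setting chosen after seeing the data), quantile normalization (0.055) and rescaling without mitochondrial genes (0.00), and single livers moved it from -0.069 to 0.032. Stab2 (-0.10) turned with median-of-ratios scaling (0.055, and 0.057 also without those livers). Leaving out single livers moved Cd34 relative to Vwf from -0.108 to 0.012 and Fcgr2b relative to pan-endothelial genes from -0.05 to 0.01. The cause was not tested. Over all tested genes, 3042 were lower and 4123 higher with median-of-ratios scaling, against 3151 and 813 as deposited, and 8576 and 1010 without the 4 rRNA-type genes; the median gene moved from -0.12 to 0.02 and -0.25. No paired analysis was possible because the labels number each mouse separately.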
